A study of Mus musculus with 12 samples.

Results

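The Hoxa cluster and Meis1 were followed through 6 genes, Hoxa3, Hoxa5, Hoxa7, Hoxa9, Hoxa10 and Meis1, each found by its exact gene name in the normalized expression table of 27676 genes. All 6 had a row, with 1 probe each, and all 6 passed the filter on low values, as did 22461 of the 27676 genes. The background bound of an array was set at the mode of its normalized log2 values plus 3 SD, the SD taken from the lower side of the mode. By that bound Hoxa3, Hoxa7 and Hoxa9 were above background on 12 of 12 arrays, and Hoxa5, Hoxa10 and Meis1 on 0 of 12. For those 3 genes the values are given but no fold, so Meis1, which is in the name of the set, was not detectable here.

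The cells were PUER cells, a mouse myeloid line with a PU.1-estrogen receptor fusion protein that 4-hydroxytamoxifen (4-OHT) switches on, upon which the cells move towards macrophages. They carried a MIGR1 retrovirus with β-catenin-S33Y, a mutant that escapes degradation, or the empty MIGR1 vector with GFP as control, and were sorted for GFP 5 days after infection. The 4 groups of 3 arrays were β-catenin-S33Y cells 24 h after 10 nM 4-OHT, β-catenin-S33Y cells at 0 h, control cells 24 h after 10 nM 4-OHT, and control cells at 0 h. All 4 groups share the PU.1 fusion and a retroviral vector. Cells kept for 24 h without 4-OHT are not analysed here, so PU.1 activity, the drug and the time in culture cannot be told apart. No label says whether replicates were separate cultures, so the p-values rest on a spread between samples that may be only technical.

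Hox genes encode homeodomain transcription factors and sit in 4 clusters, in which gene order follows position along the body axis. In blood, Hoxa9 and its neighbours are active in stem and progenitor cells and are switched off as cells mature, and forced Hoxa9 together with Meis1 causes acute myeloid leukaemia in mice. Meis1 is a homeodomain protein of the TALE class that binds DNA jointly with Hox and Pbx proteins. Trithorax and Polycomb complexes, the first of them built around Mll1, keep the Hoxa cluster active or silent.

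The promoters of the 3 detected Hoxa genes are shown because PU.1 and β-catenin, through its TCF/LEF partners, are the factors changed in these cells. They were taken from RefSeq on mouse build GRCm38.p6, all from the minus strand of chromosome 6, with 250 bases before and 50 after the gene start. The Hoxa3 start used lies between the Hoxa5 window (chr6:52204538-52204837) and the Hoxa7 window. Gene order along the cluster puts Hoxa3 on the other side of Hoxa5. Other possible starts of Hoxa3 were not searched, so its window may not be the promoter used in these cells. Capitals mark GAGGAA, the core bound by PU.1 and other ETS factors, or TGACAG, a MEIS site, on either strand.
Hoxa9, chr6:52227321-52227620: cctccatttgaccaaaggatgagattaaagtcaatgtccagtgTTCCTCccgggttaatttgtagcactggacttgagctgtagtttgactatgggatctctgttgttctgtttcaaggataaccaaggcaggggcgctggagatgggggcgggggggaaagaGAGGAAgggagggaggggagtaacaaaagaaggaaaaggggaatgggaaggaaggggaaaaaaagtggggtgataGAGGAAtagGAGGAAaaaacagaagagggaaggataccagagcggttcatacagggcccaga
Hoxa7, chr6:52218524-52218823: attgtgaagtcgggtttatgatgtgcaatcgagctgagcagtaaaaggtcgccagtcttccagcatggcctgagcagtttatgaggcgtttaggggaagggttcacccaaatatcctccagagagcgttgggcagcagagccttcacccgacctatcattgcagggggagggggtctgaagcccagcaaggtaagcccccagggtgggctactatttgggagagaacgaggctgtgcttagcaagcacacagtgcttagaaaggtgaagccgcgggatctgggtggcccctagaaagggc
Hoxa3, chr6:52213018-52213317: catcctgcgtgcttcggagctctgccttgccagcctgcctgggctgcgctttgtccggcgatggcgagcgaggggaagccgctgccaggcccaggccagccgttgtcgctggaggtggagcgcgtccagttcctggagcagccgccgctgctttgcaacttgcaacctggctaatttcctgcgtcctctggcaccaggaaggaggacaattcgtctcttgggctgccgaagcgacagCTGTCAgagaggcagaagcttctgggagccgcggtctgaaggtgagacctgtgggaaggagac
The Hoxa9 window held GAGGAA 4 times, beginning at window positions 44 (on the opposite strand), 164, 239 and 248, counted from 1 at the 5′ end shown. GAGGAA occurred in 28.3% of the 32851 mouse promoter windows of the same length, and 4 or more copies in 41 of them, or 0.125%. The cut of 4 copies is the count of the Hoxa9 window itself, so this share is a description and not a test. The Hoxa7 window held none of the 5 motifs searched, and the Hoxa3 window held TGACAG once, at position 238 on the opposite strand. TGACAG was in 19.2% of all windows. The TCF/LEF motifs ATCAAAG (3.73% of all windows) and TTCAAAG (5.14%) and the Hox-TALE motif TGATTNAT (3.22%) were in no window of the 6 genes, nor did the windows of Hoxa5, Hoxa10 and Meis1 hold GAGGAA or TGACAG. No marked motif overlapped another, and a match describes letters in this window, not binding.

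Hoxa9 encodes a Hox protein closely tied to myeloid progenitors and to leukaemia. Its normalized log2 intensity was 10.89, 11.04 and 10.78 in β-catenin-S33Y cells at 24 h, and 11.31, 11.33 and 11.35 in the same cells at 0 h. It was 10.30, 10.37 and 10.27 in control cells at 24 h, and 11.05, 11.14 and 11.00 in the same cells at 0 h. The order of the group means was thus β-catenin at 0 h, control at 0 h, β-catenin at 24 h and control at 24 h. The arrays of control cells at 0 h and of β-catenin cells at 24 h overlapped, while no other neighbours in that order did. Both 24 h groups lay wholly below their own 0 h group.

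**Figure D1:**
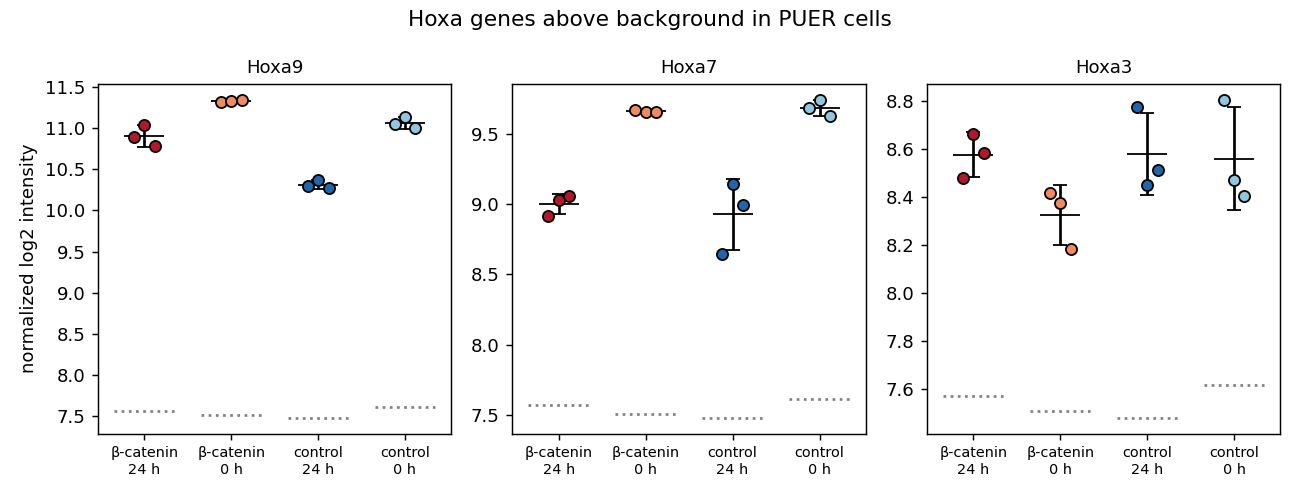
Normalized log2 intensity of Hoxa9, Hoxa7 and Hoxa3 on each of the 12 arrays, 1 panel per gene, with points for arrays, a line and bars for the mean and SD of each group (n = 3) and a dotted line at the highest background bound of the group's arrays. Hoxa9 and Hoxa7 lay lower at 24 h than at 0 h with both vectors, and Hoxa3 stayed within 8.18 to 8.81.

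Hoxa7 encodes a homeodomain factor that lies next to Hoxa9 and is often active with it in leukaemia. It read 8.92, 9.03 and 9.05 in β-catenin-S33Y cells at 24 h, and 9.67, 9.65 and 9.66 in the same cells at 0 h. Control cells read 8.65, 9.14 and 8.99 at 24 h, and 9.68, 9.74 and 9.62 at 0 h. The 24 h groups lay wholly below the 0 h groups, and at each time the arrays of the 2 vectors overlapped. Replicate A of the control cells at 24 h was the lowest of all 12.

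Hoxa3 encodes a homeodomain factor from the anterior side of the cluster, known in mouse embryos for its part in haemogenic endothelium. It read 8.48, 8.67 and 8.59 in β-catenin-S33Y cells at 24 h, and 8.42, 8.38 and 8.18 in the same cells at 0 h. Control cells read 8.78, 8.45 and 8.52 at 24 h, and 8.81, 8.47 and 8.41 at 0 h. All 4 groups lay within 8.18 to 8.81, and the arrays of control cells at the 2 times were interleaved.

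The 3 genes under the bound varied among arrays without a called difference. Hoxa5, which in human progenitors favours the myeloid over the erythroid path, ran from 6.19 to 7.34 over the 12 arrays, against bounds of 7.38 to 7.62. Hoxa10, a posterior Hox factor of progenitors, ran from 6.24 to 6.85. Meis1 ran from 5.97 to 7.06, and only 3 arrays reached the filter level, the fewest that let a gene pass. None of these 3 genes was called in any comparison, but leaving out 1 array changed this for Hoxa5: without replicate C of the β-catenin cells at 24 h, its change over 24 h of 4-OHT in β-catenin cells had an adjusted p of 0.0168 in limma, below background in both groups.

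Further genes of the cluster were read beside Hoxa3, Hoxa7 and Hoxa9. In chromosomal order these were Hoxa2, Hoxa4, Hoxa6, Hoxa11 and Hoxa13. Hoxa6, which lies between Hoxa5 and Hoxa7, was above the bound on 1 of 12 arrays, at 7.75 in replicate A of the β-catenin cells at 24 h. The other 4 were above it on 0 of 12 arrays, with values between 6.05 and 7.30. The detected genes were thus 2 in the middle of the cluster, Hoxa7 and Hoxa9, and 1 near its anterior end, Hoxa3, with 3 genes under the bound on nearly every array between Hoxa3 and Hoxa7.

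**Figure D2:**
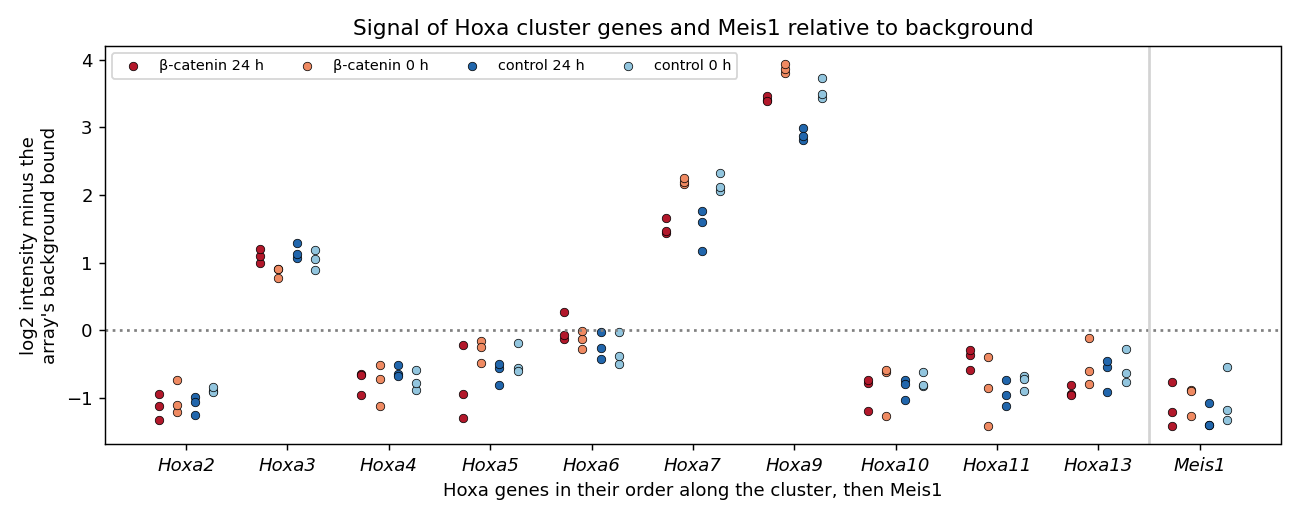
Normalized log2 intensity minus the background bound of the same array, for 10 Hoxa genes in their order along the cluster and for Meis1, with 1 point per array coloured by group and a dotted line at the bound. Hoxa3, Hoxa7 and Hoxa9 lie above the line on all 12 arrays and Hoxa6 on 1, and heights are not comparable between genes, because each has its own probe.

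The first comparison asked what 24 h of 4-OHT did in the presence of β-catenin-S33Y. Hoxa9 was 1.34-fold lower at 24 h than at 0 h and Hoxa7 was 1.58-fold lower. The log2 change of Hoxa9 was -0.43 ± 0.09 (SE), with group means of 10.90 ± 0.13 at 24 h and 11.33 ± 0.017 at 0 h (SD, n = 3 each), and its adjusted p in limma was 0.00667. That of Hoxa7 was -0.66 ± 0.12 (adjusted p in limma 0.00223), with an SD of 0.073 at 24 h and 0.0073 at 0 h (n = 3 each). So 2 of 6 genes fell and 0 rose, where 6.32% of all 22461 genes tested fell, 8.02% rose and 14.3% were called in either direction. The median over the 6 genes was -0.26, against 0.02 over all genes. Hoxa3 had a log2 difference of 0.25 (95% interval -0.03 to 0.53), with 24 h arrays all above the 0 h arrays, and did not pass the test (adjusted p in limma 0.241). In RNA from whole cultures, fewer cells that make an mRNA and less of it per cell cannot be told apart.

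The same 24 h were then compared in control cells. Hoxa9 was 1.68-fold lower at 24 h than at 0 h, and Hoxa7 was 1.69-fold lower. The log2 change of Hoxa9 was -0.75 ± 0.09 (SE, adjusted p in limma 5.36e-05), with means of 10.31 ± 0.055 at 24 h and 11.06 ± 0.072 at 0 h (SD, n = 3 each). That of Hoxa7 was -0.75 ± 0.12 (adjusted p in limma 0.000418), with means of 8.93 ± 0.25 at 24 h and 9.68 ± 0.059 at 0 h (SD, n = 3 each). Again 2 of 6 genes fell and 0 rose, where 10.8% of all genes fell, 11.9% rose and 22.7% were called in either direction. The median over the 6 genes was -0.32, against -0.005 over all genes. Hoxa3 had a difference of 0.02 (95% interval -0.26 to 0.30, adjusted p in limma 0.94). Scaling each array of the scanned table to its 75th percentile moved the median of all genes in this comparison to -0.12, against which Hoxa9 stood at -0.77 and Hoxa7 at -0.83.

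β-catenin-S33Y was then set against the control vector at each time. At 24 h Hoxa9 was higher with β-catenin, by a log2 difference of 0.59 ± 0.09 (SE, adjusted p in limma 0.000713), and all 3 β-catenin arrays were above all 3 control arrays. Hoxa9 alone among the 6 genes was called, where 8.68% of all genes were higher, 9.88% lower and 18.6% called. Hoxa7 differed by 0.07 at 24 h (95% interval -0.18 to 0.33, adjusted p in limma 0.735), and Hoxa3 by -0.004 (95% interval -0.28 to 0.28). The intervals of Hoxa7 and Hoxa3 lie below the difference measured for Hoxa9, but a test between genes was not made.

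At 0 h none of the 6 genes was called by limma, and 1 of them, Hoxa9, had an unadjusted p under 0.05, where 4.38% of all genes were higher, 6.62% lower and 11% called. Hoxa9 had a log2 difference of 0.27 ± 0.09 (SE, 95% interval 0.07 to 0.46, adjusted p in limma 0.0814) and no overlap between the arrays of the 2 vectors. It passed under 4 of 20 alternative settings. Hoxa7 differed by -0.02 (95% interval -0.28 to 0.23) and Hoxa3 by -0.24 (95% interval -0.52 to 0.05). The median over the 6 genes was -0.04, against 0.01 over all genes.

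Whether β-catenin altered the response to 4-OHT was tested as the difference between both responses. For Hoxa9 the β-catenin response minus the control response was 0.32 ± 0.13 (SE, 95% interval 0.05 to 0.60), which did not pass the test (adjusted p in limma 0.164). For Hoxa7 the difference was 0.10 (95% interval -0.26 to 0.45) and for Hoxa3 0.23 (95% interval -0.17 to 0.63). None of the 6 genes was called by limma, Hoxa9 being the 1 with an unadjusted p under 0.05, where 3.74% of all genes were higher, 3.43% lower and 7.17% called. The 2 responses of Hoxa9 are therefore given as measured, -0.43 and -0.75, without a called difference between them.

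**Figure D3:**
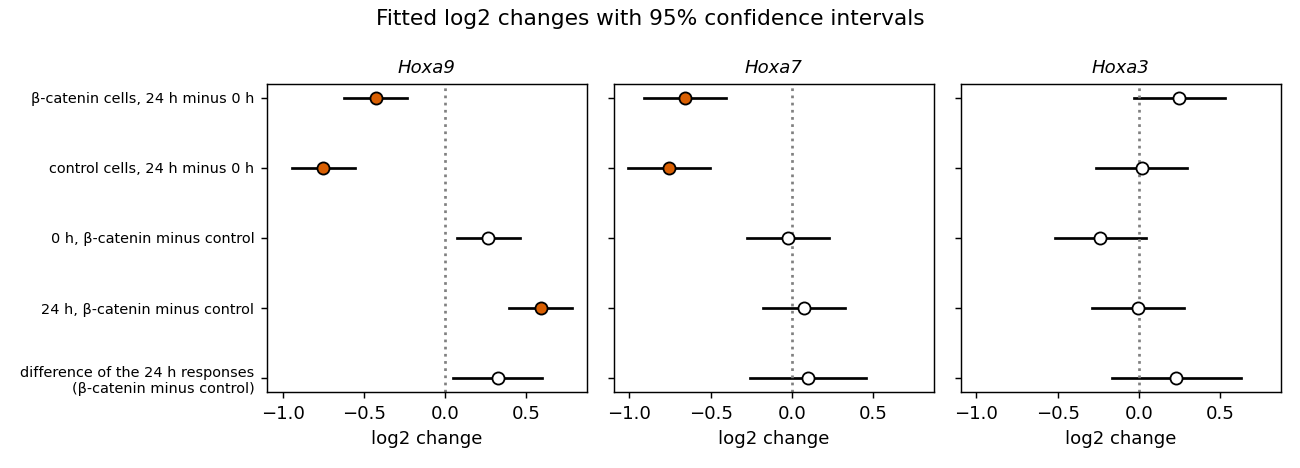
Log2 difference and 95% interval of Hoxa9, Hoxa7 and Hoxa3 in the 5 comparisons, from the limma fit over all 12 arrays, with filled points where the adjusted p passed. Filled points are both 4-OHT responses of Hoxa9 and Hoxa7 and the β-catenin effect on Hoxa9 at 24 h (0.40 to 0.78), and the intervals are not adjusted for the number of genes.

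Markers of several cell types differed between the same groups. Over all genes, 8.02% rose over 24 h with β-catenin and 11.9% rose in control cells. At 24 h 8.68% of all genes were higher with β-catenin and 9.88% were lower. Of 11 macrophage markers, 8 rose over 24 h with β-catenin and 9 in control cells, and 6 were lower with β-catenin at 24 h, where Hoxa9 was higher. Their summed linear intensity was 122361 to 145009 in β-catenin cells at 24 h, 68431 to 89636 in β-catenin cells at 0 h, 157858 to 188465 in control cells at 24 h and 79178 to 104856 in control cells at 0 h, with 0 of the 11 under the bound on all arrays. Of 8 eosinophil markers tested, 6 were higher with β-catenin at 24 h, and the sum of the 9 in the table was 74541 to 95108 in β-catenin cells against 1510 to 3669 in control cells at that time. Of 9 erythroid and megakaryocyte markers, 6 were higher with β-catenin at 24 h, and of 11 mast cell and basophil markers 3 were higher and 2 lower. The sum of these 11 was 5319 to 6194 in β-catenin cells against 3317 to 3445 in control cells at that time. The vectors also differed at 0 h, where 4.38% of all genes were higher and 6.62% lower with β-catenin. Then 6 of 8 eosinophil markers were higher. The eosinophil sum was 75019 to 99459 in β-catenin cells against 824 to 1331 in control cells. Of the mast cell and basophil markers 6 were higher and 1 lower, and of 9 erythroid and megakaryocyte markers 5 were higher. Of 11 macrophage markers 5 were lower, and of 11 neutrophil markers 1 was higher and 2 lower. Fcer1a, Tpsb2 and Tpsab1 of the mast cell list, Il5ra, Siglecf and Ccr3 of the eosinophil list and Pf4 of the erythroid list were under the bound on all arrays. Of 11 neutrophil markers, 2 were higher (Prtn3 and Ngp) and 3 lower (Lcn2, Mmp8 and Mmp9) with β-catenin at 24 h. Their sum was 303137 to 405344 in β-catenin cells against 263038 to 324735 in control cells at that time, but Mpo, Ctsg, S100a8 and S100a9 reached the scan ceiling in both groups, which limits what the sum can show. Lyz2 of the macrophage list, listed as Lyzs, changed over 24 h by 0.10 with β-catenin and -0.10 in control cells. S100a9 changed by 0.10 and -0.09. Whether Lyz2 also reached the ceiling is not given here, so the macrophage sum may be limited in the same way. The part of these cell types in the Hoxa9 and Hoxa7 results was not tested. Of 10 lymphoid markers, 7 were under the bound on all arrays.

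Hox genes of the other clusters were read for the same pattern. Of 27 in the table, 17 were tested and 3 were above background in a group, Hoxb6, Hoxc4 and Hoxd9. Hoxd9, the paralogue of Hoxa9 in the Hoxd cluster, was 1.44-fold lower at 24 h with β-catenin (log2 change -0.53 ± 0.11 SE, adjusted p in limma 0.00521) and at least 1.31-fold lower in control cells, where only 1 of 3 arrays at 24 h was above background. It was 1.52-fold higher with β-catenin at 0 h (0.60 ± 0.11 SE, adjusted p in limma 0.00309) and at least 1.38-fold higher at 24 h. Hoxd9 thus shared with Hoxa9 the lower values after 4-OHT and the higher value with β-catenin at 24 h.

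Hoxb6, a mid-cluster gene of the Hoxb cluster, went the other way with β-catenin. It read 9.28, 8.93 and 8.88 in β-catenin cells and 9.62, 9.46 and 9.41 in control cells at 24 h, and was 1.38-fold lower with β-catenin (log2 difference -0.46 ± 0.12 SE, adjusted p in limma 0.0152). At 0 h it was 1.58-fold lower (-0.66 ± 0.12 SE, adjusted p in limma 0.00298). Neither 4-OHT response of Hoxb6 was called, with adjusted p-values in limma of 0.479 with β-catenin and 0.054 in control cells. Hoxc4, an anterior gene of the Hoxc cluster, fell 1.58-fold over 24 h in control cells (adjusted p in limma 0.0031). It had a change of -0.02 with β-catenin, and the difference of both responses, 0.64, did not pass (adjusted p in limma 0.0642). Hoxc4 was already 1.38-fold lower with β-catenin at 0 h (adjusted p in limma 0.0453). At 24 h it was not called between the vectors (log2 difference 0.18, adjusted p in limma 0.42). Across the 17 tested, 1 fell and 0 rose with 4-OHT and β-catenin, where 14.3% of all genes were called. In control cells 3 fell and 0 rose, where 22.7% of all genes were called, and 1 of these 3 was Hoxb9, which was under the bound on all arrays.

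**Figure D4:**
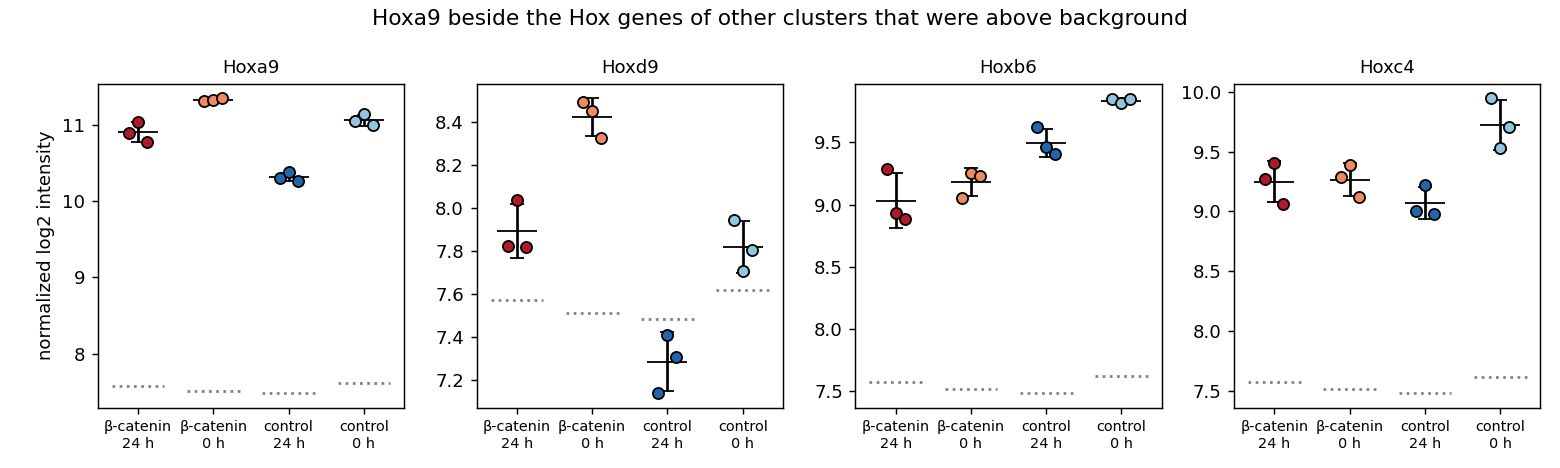
Normalized log2 intensity of Hoxa9 beside Hoxd9, Hoxb6 and Hoxc4 on each array, with group means, SD (n = 3) and background bounds as dotted lines. Hoxd9 follows the order of Hoxa9 across the groups except that its β-catenin 24 h and control 0 h means change places, and Hoxb6 is lower with β-catenin at both times.

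The TALE-class genes, whose proteins bind DNA beside Hox proteins or compete for the same sites, were all in the table, and without Meis1 10 of 10 were tested. With β-catenin, 0 rose and 1 fell over 24 h, and in control cells 1 rose and 4 fell, where 14.3% and 22.7% of all genes were called. Tgif2, a TALE repressor, was 1.92-fold higher with β-catenin at 24 h (log2 difference 0.94 ± 0.10 SE, adjusted p in limma 5.46e-05), after a change over 24 h of 0.14 with β-catenin and -0.58 in control cells. Tgif, the listed name of its close relative Tgif1, changed over 24 h by -0.11 with β-catenin and by -0.66 in control cells. Unlike Tgif2, it was already lower with β-catenin at 0 h (log2 difference -0.41, adjusted p in limma 0.0167). At 24 h Tgif was not called between the vectors (0.14, adjusted p in limma 0.359). In these 2 genes the difference between both responses was called, at 0.72 for Tgif2 (adjusted p in limma 0.00985) and 0.55 for Tgif (0.0295).

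Of the Meis relatives, Meis2 was above background on all 12 arrays. Its row is listed as Mrg1, a name that Cited2, which has its own row, has also carried. It read 12.28, 12.25 and 12.31 in β-catenin cells at 24 h, and 12.70, 12.78 and 12.86 in β-catenin cells at 0 h. Control cells read 11.68, 11.77 and 11.74 at 24 h, and 11.86, 12.32 and 12.03 at 0 h. It fell over 24 h with both vectors, with log2 changes of -0.50 ± 0.11 with β-catenin and -0.34 ± 0.11 in control cells (adjusted p in limma 0.00913 and 0.0435). With β-catenin it was 1.47-fold higher at 24 h and 1.64-fold higher at 0 h (adjusted p in limma 0.00455 and 0.00121). The row listed as Mrg2, read as Meis3 because Cited4, which shares that older name, also has its own row, was above background in control cells at 24 h alone, where it was at least 1.11-fold higher than at 0 h.

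The Pbx proteins are the other TALE partners of Hox factors. Pbx2 fell 1.27-fold over 24 h in control cells (log2 change -0.35 ± 0.09 SE, adjusted p in limma 0.0126) and was 1.31-fold lower with β-catenin at 0 h (adjusted p in limma 0.0133). Pbx3 was not called in any comparison, its largest difference being 0.19 between β-catenin and control at 0 h (95% interval 0.03 to 0.36). Pknox1, which pairs with Pbx as Meis proteins do, had differences of -0.04 to 0.09 and none was called.

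Regulators that keep the Hoxa cluster active or silent were counted in the same way. Of 28 tested, 2 rose and 0 fell over 24 h with β-catenin, 1 rose and 3 fell in control cells, 1 was higher and 1 lower with β-catenin at 0 h, and none was called by limma with β-catenin at 24 h, when 10 of the 28 had an unadjusted p under 0.05. Over all genes the shares called were 14.3%, 22.7%, 11% and 18.6% in that order, and the difference between the regulators and all genes was not tested. The share of all genes with an unadjusted p under 0.05 is not given here, so the 10 of 28 cannot be read against it. Mll1, the methyltransferase of the activating complex, was not called, with changes of -0.18 (95% interval -0.63 to 0.27) over 24 h with β-catenin and -0.02 (95% interval -0.47 to 0.43) in control cells. Mllt1, a component of elongation complexes that fuses to MLL in leukaemia, rose 1.46-fold with β-catenin and 1.39-fold in control cells (adjusted p in limma 0.00045 and 0.000612). Asxl1, a chromatin regulator mutated in human myeloid disease, rose 1.35-fold with β-catenin (adjusted p in limma 0.00764).

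Another 3 of these regulators fell in control cells over 24 h. Aff1, another MLL fusion partner, fell 1.51-fold, Cbx8, a Polycomb protein, fell 1.46-fold, and Wdr5, a core subunit of MLL complexes, fell 1.30-fold (adjusted p in limma 0.00246, 0.00643 and 0.00691). With β-catenin at 0 h, Cbx8 was 1.49-fold lower and Rnf2, the Polycomb ubiquitin ligase, 1.33-fold higher than in control cells (adjusted p in limma 0.00958 and 0.0321). Ezh2, Suz12 and Eed, the core of Polycomb complex 2, were in the list and not called.

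Genes reported elsewhere as targets of Hoxa9 or Meis1 were counted next. Of 26 tested, 9 fell and 1 rose over 24 h with β-catenin, and 13 fell and 5 rose in control cells, against 14.3% and 22.7% of all genes called in these comparisons. At 24 h 8 were higher and 6 lower with β-catenin, where 18.6% of all genes were called. At 0 h 3 were higher and 3 lower, where 11% of all genes were called. In the difference of responses 6 were higher and 1 lower, where 7.17% of all genes were called. The medians were -0.08, -0.25, 0.09, -0.02 and 0.13 in that order of comparisons, against 0.02, -0.005, 0.03, 0.01 and 0.02 over all genes. Some of these genes also mark progenitors, and a link to Hoxa9 was not tested.

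Of those that fell, Kit, the receptor for stem cell factor, read 11.99, 12.18 and 12.19 in β-catenin cells and 10.69, 11.04 and 11.01 in control cells at 24 h, against 13.25, 13.09 and 12.84 in β-catenin cells and 12.85, 12.81 and 12.73 in control cells at 0 h. It was 2.31-fold higher with β-catenin at 24 h (adjusted p in limma 4.94e-05), with changes over 24 h of -0.94 ± 0.13 with β-catenin and -1.88 ± 0.13 in control cells (SE). Hlf, a transcription factor of stem cells, changed by -0.96 ± 0.10 with β-catenin and by -1.68 ± 0.10 in control cells and was 1.95-fold higher with β-catenin at 24 h (adjusted p in limma 3.3e-05). Kit and Hlf thus had the directions of Hoxa9 in both responses and at 24 h.

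Gfi1, a zinc finger repressor of granulocyte progenitors, fell at least 2.16-fold with β-catenin and at least 5.24-fold in control cells, both lower bounds because 1 array of each 0 h group was at the scan ceiling. Myb, a transcription factor of progenitors, was at the ceiling on all 3 arrays of β-catenin cells at 0 h, fell 2.82-fold in control cells and was 2.72-fold higher with β-catenin at 24 h (adjusted p in limma 1.87e-05 and 6.25e-05). Cybb, the catalytic subunit of the phagocyte oxidase, was at least 1.94-fold higher at 24 h with β-catenin and at least 2.74-fold higher in control cells, and was 1.47-fold lower with β-catenin at 24 h (adjusted p in limma 0.0218). Id2, an inhibitor of helix-loop-helix factors, was 3.14-fold lower with β-catenin at 24 h and 2.57-fold lower at 0 h (adjusted p in limma 7.43e-05 and 0.000463).

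The genes whose pattern over the 12 arrays was most like each detected Hoxa gene were found by Pearson r and are a description. They were sought among 5063 genes called in a comparison and above background in a group. Members and rows with clone or accession names were left out. For Hoxa9 they were Nkg7 (r = 0.993), Dio2 (0.990) and Bcas1 (0.989). Nkg7, a granule protein of cytotoxic cells, changed over 24 h by -1.36 with β-catenin and -2.57 in control cells and was 2.04 higher with β-catenin at 24 h, all on the log2 scale. For Hoxa7 they were Adcy9 (0.988), Nin (0.982) and Mfap3l (0.981). For Hoxa3 the best were lower, Apeh (0.842), Pgs1 (0.807) and Mpo (0.797). Mpo reached the scan ceiling in both 24 h groups and in control cells at 0 h, which limits what its r can show. Hoxa7 and Hoxa9 correlated with r = 0.786 over the 12 arrays, which share the 4 groups, and Hoxa3 had r of -0.47 with Hoxa7 and -0.44 with Hoxa9.

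Across the 12 arrays, median scanned intensity was 134 to 208, 46.6% to 49.6% of genes were above background, and arrays of 1 group correlated with r of 0.993 to 0.995, against 0.979 to 0.991 between groups. The number of arrays limits the precision, with a median SE of 0.134 on the log2 scale for a difference of 2 groups. Transcripts of Ctnnb1, the β-catenin gene, differed by -0.10 at 24 h and 0.01 at 0 h between vectors and were not called, and whether its probe reads the vector's copy is not known here. Spi1, the PU.1 gene, listed as Sfpi1, fell 1.40-fold over 24 h in control cells (adjusted p in limma 0.00741) and changed by -0.04 with β-catenin. Whether the Spi1 probe reads the transcript of the PU.1 fusion is not known here either.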

How the data were processed

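Total RNA of 12 samples was read on 1-colour Agilent mouse 4×44K arrays. The deposited scanned table gives spot intensity (43379 spots an array) up to a ceiling of 65535. The deposited normalized table holds log2 values of 27676 genes, 1 probe each. Per the submitters' processing notes limma was used. Its version, the normalization, the probe choice and the build are not given in the sources used here. A deposited value table equals the normalized one (largest difference 0).

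Genes at or above the 30th percentile on at least 3 arrays were tested (22461) with limma 3.58.1 in R 4.3.3, as group means over all 12 arrays with 8 residual and 3.68 prior degrees of freedom. Each of the 5 contrasts was tested two-sided, p-values were adjusted by Benjamini and Hochberg's method over every gene tested, and calls were made at an adjusted p below 0.05. The code was tested on simulated data. Same-letter replicates deviated together between the vectors at 24 h (r of 0.15 to 0.19 in 3 of 3 pairs), which is read from the data, since no label says what a letter marks. Folds against a group with an array under its background bound or at the scan ceiling are given as at least. Where both groups lie below background no fold is given.

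The members and the lists of TALE, Hox, regulator, target and cell type genes were chosen with earlier results of these data known. Named from each list were up to 6 called genes with the largest change, with Pbx2, Pbx3, Pknox1 and Mll1 always named, and the 3 genes nearest in pattern to each detected member. Ezh2, Suz12 and Eed were added after their values were seen. Some genes of the lists are not reported here and remain in the counts. The alternatives were normexp correction (offset 50) with quantile normalization, scaling to the 75th percentile, no filter, a 50th percentile filter, a replicate block, array weights, a trended robust prior, the 2 groups of a contrast alone, and each array left out. Motifs were searched on both strands.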

Additional observations from a re-analysis of the deposited data

Results flagged for a closer look

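The 4-OHT response differed between vectors, by the limma test of the difference itself, in 10 genes of the lists related to Hoxa9 and Meis1. In the TALE list 2 of 10 tested were called, and 1 of 23 other Hox genes. Of 28 regulators 0 were called, and of 26 reported targets 6 were higher and 1 lower. Over all genes 3.74% were higher, 3.43% lower and 7.17% called. The β-catenin response minus the control response on the log2 scale was positive in 9 of the 10 genes and negative in 1. A positive value does not by itself mean a higher level with β-catenin at 24 h. It was 0.72 for Tgif2 and 0.55 for Tgif, both of the TALE class, and among the reported targets 0.94 for Kit (adjusted p 0.00783) and 0.72 for Hlf (0.00766). A further 4 of the 10 are named after their values were seen. Of these, Ccnd3, a cyclin of the cell cycle, had 0.63 (0.0278), and Camk2d, a calcium-dependent kinase, had -0.53 (0.0324). Ccnd3 was lower with β-catenin at 0 h (-1.11, adjusted p in limma 4e-05) and at 24 h (-0.48, adjusted p in limma 0.0094). Hoxb9 had 0.80 (0.0485) while under the background bound on all arrays. Cdk6, a cell cycle kinase, had 0.74. The scan ceiling was reached by Cdk6 in 3 groups and by Gfi1, at 1.28, on 1 array of each 0 h group, so the error of these 2 values can go either way. Myb was at the ceiling on all 3 arrays of β-catenin cells at 0 h and in no other group, so its difference is at most 1.14 and may be smaller.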

How the results depend on the processing

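The falls of Hoxa9 and Hoxa7 over 24 h with each vector and the higher Hoxa9 with β-catenin at 24 h kept their direction and their call under all alternatives run (20 for each response, 22 for Hoxa9 at 24 h). Over these the adjusted p in limma was 0.000892 to 0.0345 (Hoxa9) and 0.000248 to 0.0109 (Hoxa7) for the response with β-catenin, 2.25e-06 to 0.000788 and 5.9e-05 to 0.00546 for the control response, and 6.72e-05 to 0.0104 for Hoxa9 with β-catenin at 24 h. The Hoxa9 difference with β-catenin at 0 h passed with normexp and quantile normalization (0.0183), a 50th percentile filter (0.0369, fewer genes tested), array weights (0.0291) and a trended robust prior (0.0449), and ran from 0.0525 to 0.217 with 1 array left out; the cause was not tested. The difference of the Hoxa9 responses had 0.084 to 0.287 over 19 alternatives. Hoxa5, under background, passed in the control response with normexp (0.044) and 75th percentile scaling (0.00717), and in the β-catenin response had 0.0168 to 0.436 with 1 array left out. Array weights raised the counts of called genes to 5060 for the β-catenin response, 4350 for β-catenin at 0 h and 2810 for the difference of responses, against 3220, 2469 and 1610; the count at 0 h was 1547 to 2968 with 1 array left out (1547 without β-catenin replicate B, 1624 without its replicate C, 1633 without control replicate B). Scaling moved the split of calls: 2058 higher and 3327 lower in the control response with 75th percentile scaling, against 2674 and 2422; 2615 and 1753 for β-catenin at 24 h, against 1950 and 2219; 1484 and 1717 for the β-catenin response, against 1801 and 1419; and 1552 and 1566 for β-catenin at 0 h with normexp, against 983 and 1486. Same-letter arrays of the 2 vectors at 24 h deviated together weakly, with r of 0.15 to 0.19 in 3 of 3 pairs. Elsewhere r was -0.17 to 0.20, with 1 pair above 0.1. Arrays of different letters were not compared, so these values do not settle whether the letters mark pairs. A replicate block over all arrays changed no call of the 6 genes, with Hoxa9 at 0.0083, 0.000132 and 0.00127 in both responses and at 24 h, and it left 3080 calls in the β-catenin response. Chosen after the data were seen, a replicate block on the 24 h arrays alone gave Hoxa9 0.000588 at 24 h with 5048 genes called, and one with these 2 groups alone gave 0.0104 with 3870, against 4169; neither changed a call of the genes it tested among the 6. Alternatives that did not test Meis1 have no value for it.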
